A study of Mus musculus with 8 samples.

Results

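The platelet-derived growth factor (PDGF) family of the mouse holds 4 ligand genes, Pdgfa, Pdgfb, Pdgfc and Pdgfd, and 2 receptor genes, Pdgfra and Pdgfrb. These 6 genes were taken by their symbols from the 31894 genes with an identifier in the count table, and all 6 passed the filter on low counts that left 13598 genes for testing. They were followed in E-cadHI and E-cadLO tumor cells sorted from breast cancer brain metastases (BCBM) of mice 57, 58, 67 and 70, with 1 bulk mRNA library of each population per mouse and hence 4 libraries per group. All mice were FVB mice with the genotype label wild type, and the labels give neither their age nor a treatment. The tumor cells of both groups came from PyMT mammary tumors that carried an E-cadherin-mCFP fusion, a fluorescent reporter of the protein, and the nuclear label H2B-Dendra2. They had been passaged serially in the brain before the injection that gave these tumors. Live Dendra2-positive cells were sorted and then split into mCFP-positive (E-cadHI) and mCFP-negative (E-cadLO) cells, and the sorted purity was examined only for the mCFP-positive cells because the mCFP-negative cells were too few. Cells were thus chosen by tumor label and E-cadherin protein, and the methods name no gate that removes fibroblasts, mural cells or glia by a marker of their own.

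PDGF ligands are secreted dimers that act on neighboring cells through a pair of receptor tyrosine kinases. PDGF-A and PDGF-B are cut inside the cell by furin-like convertases, whereas PDGF-C and PDGF-D are secreted in a latent form and activated outside the cell by proteases of the plasminogen activator system and by related enzymes. The alpha receptor binds the A, B and C chains, and the beta receptor binds mainly the B and D chains. In the brain, the alpha receptor marks oligodendrocyte precursor cells (OPC), the beta receptor marks pericytes and vascular smooth muscle cells (together mural cells), and fibroblasts of the meninges and vessels carry both. Epithelial cells are known mainly as a source of ligand. The paper reports that E-cadLO tumor cells are in a mesenchymal state. Levels of both receptors are given below beside markers of fibroblasts, mural cells and OPC. Whether the receptor RNA came from tumor cells or from other cells was not tested.

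In the GRCm38 build used by the count table, Pdgfa is at chromosome 5, 138976014 to 138997370 (minus strand), Pdgfra at chromosome 5, 75152292 to 75198215 (plus strand), Pdgfb at chromosome 15, 79995900 to 80014808 (minus strand), Pdgfc at chromosome 3, 81036416 to 81214040 (plus strand) and Pdgfd at chromosome 9, 6168584 to 6378850 (plus strand). Annotated antisense genes share 813 exonic bases with Pdgfa (6330403L08Rik, 3 to 35 counts per library) and 147 with Pdgfc (Gm16000, 0 to 2 counts), and Gm42802 shares 456 with Pdgfra. The strand setting of the counting is not given in the sources used here, so reads of these antisense partners may be part of the values.

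Promoter sequences, from 250 bases before to 50 bases after an annotated start in RefSeq (GRCm38.p6), were found for 4 of the 6 genes. Those of the most abundant ligands and of the alpha receptor are shown because Pdgfa and Pdgfra were higher in E-cadLO cells of every mouse while Pdgfc was lower in 3 of 4, and capitals mark the GC box GGGCGG on either strand. Pdgfa is shown with the more upstream of its annotated starts (chr5:138994895-138995194, minus strand), Pdgfc with chr3:81036166-81036465 (plus strand) and Pdgfra with chr5:75152001-75152300 (plus strand).
Pdgfa: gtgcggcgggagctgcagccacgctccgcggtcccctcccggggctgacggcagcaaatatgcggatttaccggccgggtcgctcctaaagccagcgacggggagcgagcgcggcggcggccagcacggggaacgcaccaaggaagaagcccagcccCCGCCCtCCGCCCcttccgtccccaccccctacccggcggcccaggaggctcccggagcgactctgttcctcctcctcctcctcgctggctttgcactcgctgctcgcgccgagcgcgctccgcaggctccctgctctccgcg
Pdgfc: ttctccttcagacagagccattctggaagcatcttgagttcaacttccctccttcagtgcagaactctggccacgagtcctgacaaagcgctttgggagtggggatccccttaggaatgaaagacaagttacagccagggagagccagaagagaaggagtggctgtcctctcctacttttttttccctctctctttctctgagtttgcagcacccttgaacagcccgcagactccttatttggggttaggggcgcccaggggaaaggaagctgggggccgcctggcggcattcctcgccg
Pdgfra: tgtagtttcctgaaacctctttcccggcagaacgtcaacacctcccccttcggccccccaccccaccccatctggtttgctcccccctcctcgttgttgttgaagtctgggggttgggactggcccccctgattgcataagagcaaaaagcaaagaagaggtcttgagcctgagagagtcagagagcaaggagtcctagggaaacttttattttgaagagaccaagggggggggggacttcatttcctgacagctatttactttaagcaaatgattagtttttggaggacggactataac
The window of Pdgfa was 73.3% G and C and held 2 GC boxes, while those of Pdgfc (55%) and Pdgfra (51%) held 0. Of all 32851 promoter windows of this length, 35.7% held a GC box, and the median GC content was 52.7%. The E-box CACCTG (in 20.2% of all windows), the TATA box TATAAA (13.6%) and the CCAAT box CCAAT (37.4%), also searched on both strands, were not in these 3 windows, so no hits overlapped. These are matches of letters and were not tied to any of the measurements.

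Libraries held between 9102781 and 15769200 counts. Cdh1, which encodes E-cadherin, had between 93.5 and 132 normalized CPM (counts scaled to the library total after TMM, the trimmed mean of M-values) in E-cadHI and between 59.2 and 181 in E-cadLO cells, a log2 fold change of -0.17 ± 0.33 (SE, edgeR adjusted p = 0.809), with ranges that overlapped between populations sorted on the protein. In edgeR without the mouse in the model, 0 of the 13598 genes (0%) passed an adjusted p of 0.05, although 1109 genes were higher and 790 lower in E-cadLO at an unadjusted p under 0.05, among them 4 of the 6 PDGF genes. When the mouse was added as a replicate block, edgeR called 99 genes higher (0.728%) and 0 lower. DESeq2 called 386 genes higher (2.64%) and 43 lower without the block, and 1031 higher (7.19%) and 216 lower with it. In bulk libraries, a change in the share of a cell type cannot be told apart from a change in the RNA per cell. The labels name separate mice, so the spread between libraries includes differences between animals.

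Of the 6 genes, 5 had a higher mean in E-cadLO cells and 1, Pdgfc, had a lower one. For 3 of the 6 (Pdgfa, Pdgfra and Pdgfrb) the E-cadLO library was higher in all 4 mice, which held for 16.8% of all genes tested. For 2 of them, Pdgfa and Pdgfrb, the values of both groups did not overlap, which held for 3.90% of all genes in the same direction. None of the 6 passed in edgeR with or without the replicate block. DESeq2 with the block called 2 of the 6, Pdgfa and Pdgfra, and DESeq2 without it called Pdgfa. The exact sign-flip test over mice gave the smallest p that 4 mice allow for Pdgfa, Pdgfra and Pdgfrb, and 0.25 for the other 3. Since the 6 genes were chosen with earlier results known, these shares are a description.

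**Figure D1:**
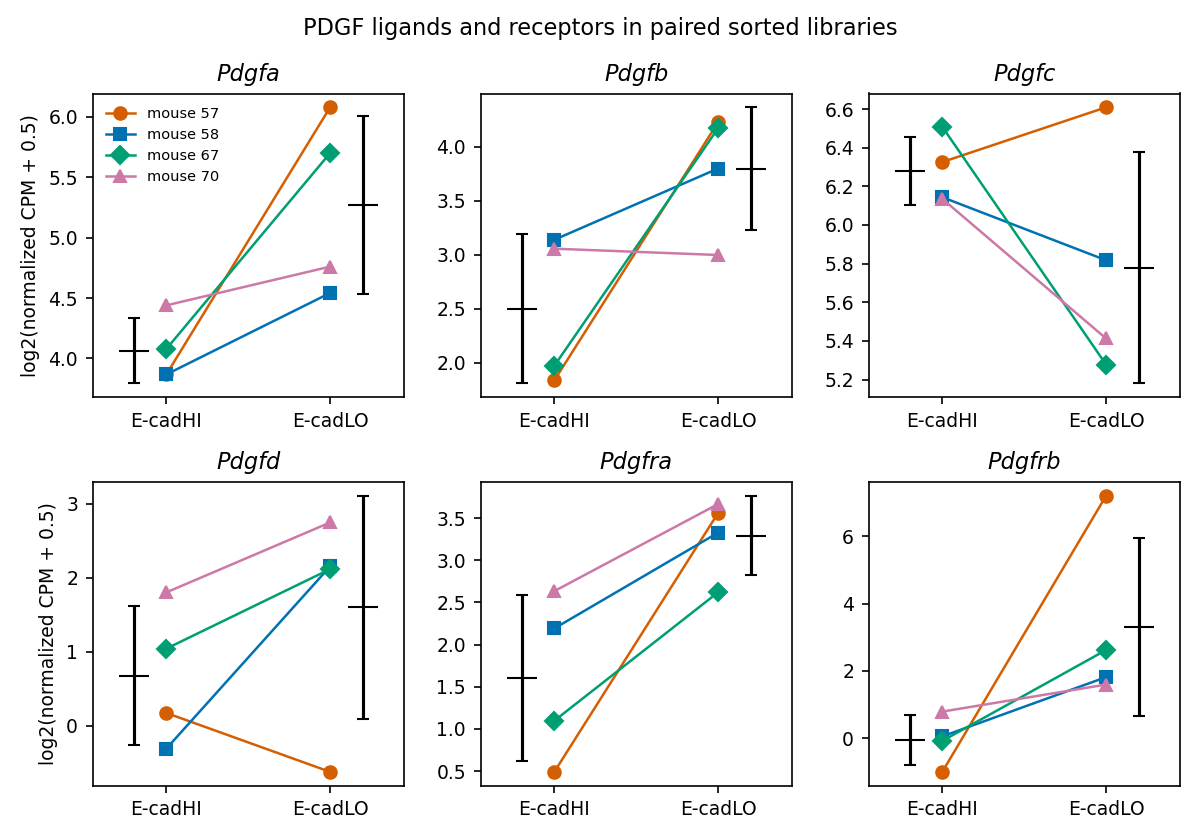
Each panel plots 1 gene on a log scale, as log2(normalized CPM + 0.5), with points for the libraries, lines joining the E-cadHI and E-cadLO library of a mouse, and bars for the mean ± SD of 4 libraries. Lines for Pdgfa, Pdgfra and Pdgfrb slope upward in all 4 mice, those for Pdgfc slope downward in 3 of 4, and Pdgfrb of mouse 57 stands far above the other libraries.

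Among the ligands, Pdgfc was the most abundant in E-cadHI cells. Per kilobase of annotated exon, the mean level in E-cadHI cells was 15.2 ± 1.91 normalized CPM (SD, n = 4) for Pdgfc, 5.27 ± 1.07 for Pdgfa, 1.36 ± 0.67 for Pdgfb and 0.434 ± 0.381 for Pdgfd. Pdgfc was above Pdgfa, and Pdgfa above Pdgfb, in all 4 libraries with ranges that did not overlap, whereas the ranges of Pdgfb and Pdgfd overlapped. In E-cadLO cells the order at the top was no longer separated: Pdgfa had 13.5 ± 6.74 and Pdgfc 11.5 ± 5.29 normalized CPM per kilobase, with overlapping ranges and with Pdgfa above Pdgfc in 3 of 4 libraries. Pdgfb (3.40 ± 1.18) and Pdgfd (1.12 ± 0.797) were again lower in mean level per kilobase.

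Pdgfa encodes the A chain, whose homodimer signals through the alpha receptor. Its E-cadHI libraries held 14.1, 14.1, 16.4 and 21.2 normalized CPM in mice 57, 58, 67 and 70, and its E-cadLO libraries held 67.1, 22.8, 51.5 and 26.6. The E-cadLO libraries of mice 57 and 67 were the high ones, and the lowest E-cadLO value lay just above the highest E-cadHI value. The log2 fold change was 1.35 ± 0.36 (SE, edgeR adjusted p = 0.262) without and 1.23 ± 0.34 (adjusted p = 0.146) with the replicate block. In DESeq2 it was 1.25 ± 0.36 (adjusted p = 0.0104) with the block and 1.38 ± 0.39 (adjusted p = 0.0214) without it. The call of the blocked DESeq2 fit was lost without mouse 57 (log2 fold change 0.88, adjusted p = 0.065) and without mouse 67 (1.09, adjusted p = 0.203). The exact permutation test of 4 against 4 libraries gave p = 0.0286, the smallest p that this design allows, and 0.0858 after adjustment over the 6 genes.

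Pdgfb encodes the B chain, the ligand through which endothelium recruits pericytes. It had 3.07, 8.30, 3.42 and 7.81 normalized CPM in E-cadHI cells of mice 57, 58, 67 and 70, against 18.2, 13.4, 17.5 and 7.48 in E-cadLO cells. The E-cadLO library was higher in 3 of 4 mice and nearly equal in mouse 70, and the groups overlapped. The log2 fold change was 1.32 ± 0.45 (SE, edgeR adjusted p = 0.298), and DESeq2 with the block gave 1.40 ± 0.50 (adjusted p = 0.0548). Without mouse 70, the blocked DESeq2 fit passed (log2 fold change 1.89, adjusted p = 0.0115). In the E-cadLO library of mouse 57, where Pdgfb was highest (245 counts), the endothelial genes Pecam1, Cdh5, Cldn5 and Kdr had 5, 78, 6 and 23 counts, against 5, 4, 0 and 3 in E-cadHI of that mouse. Tek, an endothelial receptor gene named after its values were seen, had 162 against 3 counts. The sum of the 14 endothelial markers was 65.9 against 43.2 normalized CPM. Flt1, also named after its values were seen, made up 34.0 and 40.4 of these sums and was thus lower in E-cadLO. The part of endothelial RNA in the Pdgfb difference was not tested.

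Pdgfc encodes a latent ligand of the alpha receptor and was the exception in direction. The E-cadHI libraries of mice 57, 58, 67 and 70 held 79.7, 70.2, 90.5 and 69.8 normalized CPM, a narrow range, and the E-cadLO libraries 97.1, 55.9, 38.3 and 42.1. The E-cadLO value was below every E-cadHI value in mice 58, 67 and 70 and above them all in mouse 57. The log2 fold change was -0.41 ± 0.29 (SE, edgeR adjusted p = 0.505). Without mouse 57 it was -0.78 ± 0.22 (edgeR adjusted p = 0.585), and in the blocked DESeq2 fit without that mouse it was -0.77 with an adjusted p of 0.0207.

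Pdgfd encodes a latent ligand of the beta receptor and was the least abundant ligand. It had 9, 4, 21 and 34 counts in E-cadHI cells of mice 57, 58, 67 and 70, and 2, 34, 57 and 89 counts in E-cadLO cells. It was higher in E-cadLO cells of 3 mice and lower in mouse 57, the opposite of the order seen for Pdgfa and Pdgfb, whose E-cadLO values were highest in mouse 57. The log2 fold change of 1.37 ± 0.98 (SE, edgeR adjusted p = 0.513) did not pass, and without mouse 57 the blocked DESeq2 fit gave 1.86 (adjusted p = 0.105).

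The makeup of the ligand transcripts was also described by ratios within a library, which do not depend on the scaling of the libraries. Per 100 counts of Pdgfc, the E-cadHI libraries of mice 57, 58, 67 and 70 held 17.7, 20.1, 18.2 and 30.3 counts of Pdgfa, and the E-cadLO libraries held 69.1, 40.7, 134 and 63.0. Every E-cadLO library was above every E-cadHI library. Pdgfa and Pdgfc were paired after their opposite directions had been seen, which favors such a separation. As a share of the summed ligand level per kilobase, Pdgfc took 74.2, 67.6, 73.0 and 58.8% in E-cadHI cells and 42.4, 48.3, 25.5 and 40.3% in E-cadLO cells. This ratio was computed after the values of the genes had been seen and is given without a test. The summed ligand level itself was between 20.4 and 24.4 normalized CPM per kilobase in E-cadHI cells and 45, 22.8, 29.5 and 20.6 in E-cadLO cells of mice 57, 58, 67 and 70, so mice 58 and 70 lay within the E-cadHI range.

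**Figure D2:**
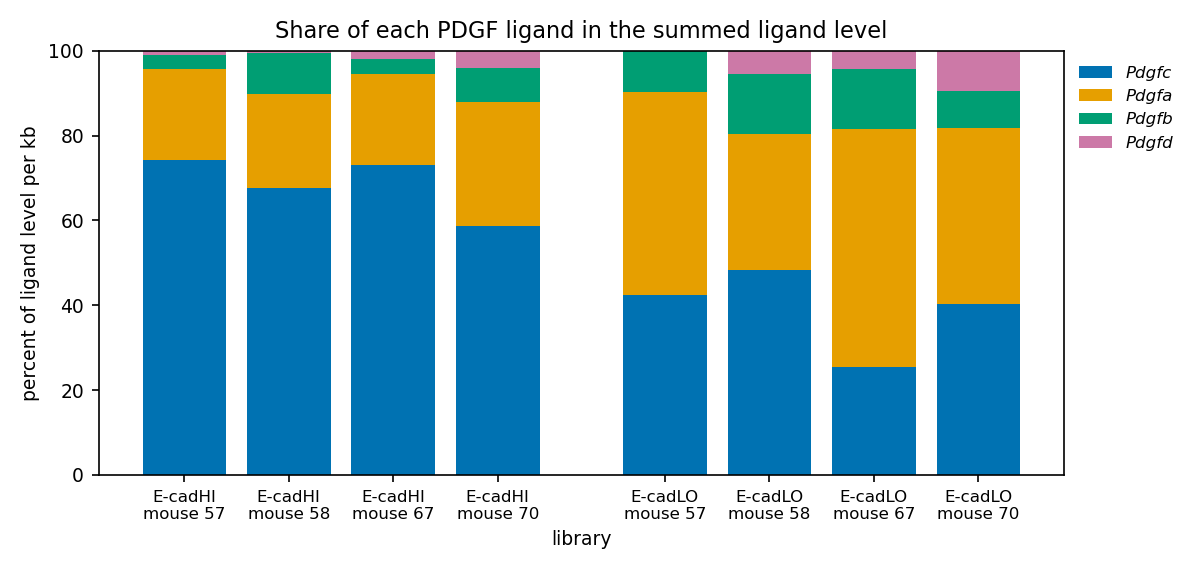
Stacked bars show, for each library, the percent that each ligand takes of the summed ligand level (normalized CPM per kilobase of exon). Pdgfc takes from 58.8 to 74.2% in the E-cadHI libraries and from 25.5 to 48.3% in the E-cadLO libraries, where the Pdgfa share is larger.

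Both receptors were at low levels in E-cadHI cells. Per kilobase, Pdgfra had 0.307 ± 0.221 normalized CPM (SD, n = 4) and Pdgfrb 0.101 ± 0.0928, below the mean of every ligand, although Pdgfd was above Pdgfra in only 3 of 4 libraries and the ranges of neighbors in this order overlapped. In E-cadLO cells the level per kilobase was 0.966 ± 0.290 for Pdgfra, and for Pdgfrb 7.21 ± 13.1, an SD larger than the mean because 1 library held 26.8.

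Pdgfra, the alpha receptor, had 0.906, 4.07, 1.64 and 5.71 normalized CPM in E-cadHI cells of mice 57, 58, 67 and 70 and 11.3, 9.54, 5.65 and 12.2 in E-cadLO cells. The E-cadLO library was higher in all 4 mice, by 3.07, 1.13, 1.53 and 1.04 on the log2(normalized CPM + 0.5) scale, and the groups overlapped only in that E-cadHI of mouse 70 lay slightly above E-cadLO of mouse 67. The log2 fold change was 1.65 ± 0.58 (SE, edgeR adjusted p = 0.303), and 1.87 ± 0.51 (adjusted p = 0.145) with the replicate block. DESeq2 with the block gave 1.89 ± 0.52 (adjusted p = 0.0067). Without mouse 57 that fit gave 1.35 (adjusted p = 0.0527), and without mouse 67 it gave 1.92 (adjusted p = 0.0738), so the call needed both mice. The exact permutation test gave p = 0.0571, and 0.114 adjusted over the 6 genes.

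OPC markers were measured beside Pdgfra. Summed over the 14 OPC markers found in the table, the E-cadHI libraries of mice 57, 58, 67 and 70 held 59.4, 127, 67.0 and 166 normalized CPM and the E-cadLO libraries 31.4, 189, 78.2 and 319. The sum was higher in E-cadLO cells of mice 58, 67 and 70, but lower in mouse 57, where the Pdgfra difference was largest. In that E-cadLO library, which held 152 counts of Pdgfra, the lineage factor Olig2 was at 0 counts, the lineage factor Olig1 at 16 and the proteoglycan gene Cspg4 at 2, against 0, 1 and 1 in E-cadHI of the same mouse, and 6 of the 14 markers were at 0, against 7 there. Most of the lower sum in mouse 57 was Sox10, with 53.4 normalized CPM in E-cadHI and 26.5 in E-cadLO. In the E-cadLO library of mouse 70, with 175 counts of Pdgfra, Olig1 had 784, Olig2 had 84 and Cspg4 had 24 counts. Much of the sum in E-cadHI cells came from Sox10, with 751 to 1067 counts there. Of the 11 OPC markers tested, 10 had a positive log2 fold change with a median of 0.59 (0.065 over all genes tested), 0 passed in edgeR without the block, and 1, Bcan (brevican, a proteoglycan of the brain matrix), passed with it (log2 fold change 1.85, adjusted p = 0.0392). DESeq2 with the block called Olig1 and Bcan higher. The part of OPC RNA in the Pdgfra difference was not tested.

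Pdgfrb, the beta receptor, was set apart by 1 library. The gene lies at chromosome 18, 61045150 to 61085061 (plus strand, GRCm38), and no annotated gene overlaps it. It had 0, 7, 6 and 14 counts in E-cadHI cells of mice 57, 58, 67 and 70, and 1976, 26, 84 and 36 counts in E-cadLO cells. In normalized CPM these were 0, 0.538, 0.446 and 1.23 against 147, 3.02, 5.65 and 2.52, so the E-cadLO library was higher in all 4 mice and the groups did not overlap. The E-cadLO library of mouse 57 was at least 702-fold higher than its E-cadHI library, with 3 counts (0.209 normalized CPM) as the upper limit for the E-cadHI count of 0. The log2 fold change was 6.17 ± 1.65 (SE, edgeR adjusted p = 0.262). Without mouse 57 it was 2.32 ± 0.67 (edgeR adjusted p = 0.585). With the replicate block it was 3.93 ± 1.42 (adjusted p = 0.207), and 2.32 ± 0.72 (adjusted p = 0.134) without mouse 57. DESeq2 gave it no adjusted p without the block and 3.55 ± 1.68 (adjusted p = 0.176) with it. The mean of E-cadLO over the mean of E-cadHI libraries was 71.4 with and 5.06 without mouse 57. The exact permutation test gave p = 0.0286, the smallest possible, and 0.0858 adjusted over the 6 genes.

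**Figure D3:**
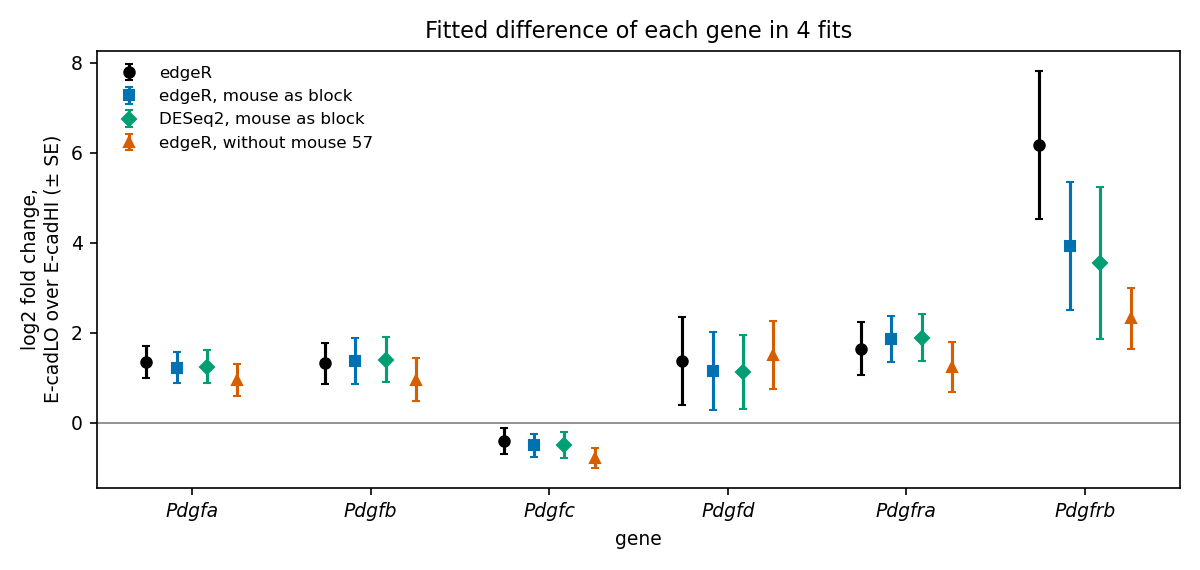
Points show the fitted log2 fold change of E-cadLO over E-cadHI cells for each gene and bars its SE, in edgeR, edgeR with the mouse as block, DESeq2 with the mouse as block and edgeR without mouse 57. Pdgfc is the only gene below 0 in all 4 fits, and only Pdgfrb moves widely between them, from 6.17 to 2.32.

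The summed fibroblast markers were highest in the same library as Pdgfrb, carried by its matrix genes. Summed over 15 fibroblast markers, the E-cadHI libraries held 6.91 to 25.8 normalized CPM, and the E-cadLO libraries of mice 58, 67 and 70 held 19, 32.7 and 66.6, whereas that of mouse 57 held 1710. The fibrillar collagen genes Col1a1, Col1a2 and Col3a1 had 6691, 4189 and 2427 counts there, against at most 122, 143 and 76 in the other 7 libraries. Dcn, a collagen-binding proteoglycan, had 453 counts there and 3 to 104 elsewhere. Of genes picked after their values were seen, the matrix gene Postn had 6390 counts in that library, and Dpt, which encodes the matrix protein dermatopontin, had 1514 counts there and 0 in all others. Not every marker was highest there: of 3 further markers named after their values were seen, Thy1 had 1 count there and 55 in E-cadLO of mouse 70, Pdpn had 9 and 332, and Mfap5 had 6 there and 10 in E-cadLO of mouse 67. All 8 fibroblast markers tested in edgeR had a positive log2 fold change, with a median of 3.89, and of 1.33 without mouse 57. Of these, 0 passed with or without the block. DESeq2 with the block gave an adjusted p to 13 of the 15 markers. It called 3 of them higher (Dcn, Pdpn and Col5a2, the last not tested in edgeR), against 7.19% of all genes. The part of fibroblast RNA in the Pdgfrb and Pdgfra values was not tested.

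Mural markers differed in direction among themselves. The sum of the 15 mural markers was 128, 159, 112 and 207 normalized CPM in E-cadHI cells of mice 57, 58, 67 and 70 and 113, 101, 138 and 257 in E-cadLO cells, higher in 2 of 4 mice. Anpep and Abcc9 made up much of it, with 87.6 and 19.6 of the 128 in E-cadHI of mouse 57, and they had 8.62 and 5.87 in E-cadLO of that mouse. Other markers, named after their values were seen except Rgs5, were higher there: the pericyte gene Rgs5 had 0.976 normalized CPM in E-cadHI and 18.3 in E-cadLO of mouse 57, Mcam had 12.4 and 69.6, and Tagln had 0.976 and 3.79. Their log2 fold changes were 1.92 (edgeR adjusted p = 0.466), 1.43 (0.305) and 1.40 (0.298), and Mcam and Tagln were higher in E-cadLO of all 4 mice. In the E-cadLO library of mouse 57, 3 of the 15 markers were at 0 counts, among them Myh11 of smooth muscle and Higd1b of pericytes, both named after their values were seen. Rgs5 had 246 counts there and 1938 in E-cadLO of mouse 70, where Pdgfrb had 36 counts. The channel gene Kcnj8 (0 to 30 counts per library) and its partner Abcc9 had log2 fold changes of -0.42 (edgeR adjusted p = 0.845) and -0.72 (adjusted p = 0.403). Of the 9 mural markers tested 5 had a positive log2 fold change, with a median of 0.59, and 0 passed in edgeR with or without the block. DESeq2 with the block gave an adjusted p to 12 mural markers and called 1, the peptidase gene Anpep, lower (-1.54, adjusted p = 0.00298). The part of mural RNA in the Pdgfrb values was not tested.

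**Figure D4:**
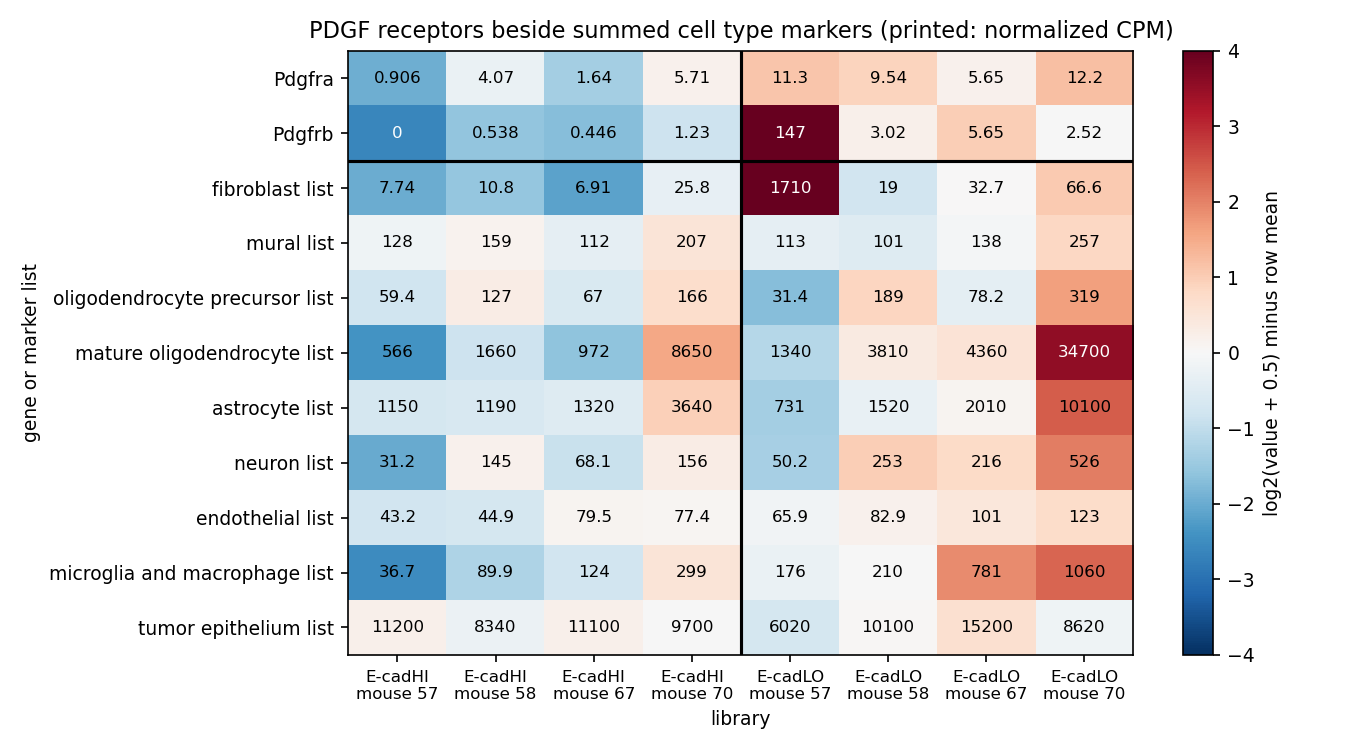
Rows are the receptor genes and the summed markers of each cell type, columns are the 8 libraries, the printed numbers are normalized CPM and the color is the log2(value + 0.5) minus the row mean, cut at 4 in either direction. Pdgfrb (147) and the fibroblast sum (1710) stand out in E-cadLO of mouse 57, and the oligodendrocyte and astrocyte sums stand out in mouse 70.

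RNA of brain cells was also measured beside these differences. Summed markers were higher in the E-cadLO library of all 4 mice for microglia and macrophages (36.7 to 299 normalized CPM in E-cadHI, 176 to 1060 in E-cadLO), mature oligodendrocytes (566 to 8650 against 1340 to 34700), neurons (31.2 to 156 against 50.2 to 526), endothelium (43.2 to 79.5 against 65.9 to 123) and platelets (4.46 to 8.45 against 8.72 to 10.6), and of 3 mice for astrocytes (1150 to 3640 against 731 to 10100). The exception was mouse 57, where Aldoc made up 1000 of the 1150 in E-cadHI and 124 of the 731 in E-cadLO. In that mouse Gfap (2.09 against 8.99) and Slc1a3 (3.69 against 23.9) were higher in E-cadLO, and Aqp4 (0.627 against 0.371) was lower. In mouse 58, Flt1 made up 39.0 of the endothelial sum of 44.9 in E-cadHI and 73.7 of the 82.9 in E-cadLO. There Pecam1 (0.768 against 0.814) and Cldn5 (0.384 against 0.465) were slightly higher in E-cadLO. Cdh5 (0.231 against 0.116) and Kdr (0.384 against 0) were lower, all from 0 to 10 counts. With the replicate block, edgeR called the microglial markers Cx3cr1, Cd68 and P2ry12 higher, along with 2 of 10 of mature oligodendrocytes (Mbp and Mobp), 3 of 10 of astrocytes (Gfap, Slc1a3 and S100b), 1 of 10 of neurons (Snap25), and 0 of 9 endothelial and 0 of 3 platelet markers tested. Without the block, 0 markers of any list passed. DESeq2 with the block, the fit that called Pdgfa and Pdgfra, called 14 of 15 microglial, 7 of 10 mature oligodendrocyte, 7 of 10 neuronal, 6 of 10 astrocyte, 1 of 11 endothelial and 1 of 3 platelet markers higher and 0 lower. Median log2 fold changes without the block were 2.1, 1.92, 1.68, 1.82, 1.28 and 1.12 for microglia, mature oligodendrocytes, astrocytes, neurons, endothelium and platelets. The platelet gene Pf4 had 0 to 4 counts in E-cadHI and 12 to 28 in E-cadLO cells, but the other platelet markers did not all follow it. Ppbp had at most 6 and Gp9 at most 3 counts in any library. Itga2b had an edgeR log2 fold change of 1.12. Of 2 markers named after their values were seen, Itgb3 had -0.13 and Treml1 had 0 counts in every E-cadLO library. The 12 tumor epithelium markers, led by Epcam, Krt8, Krt18 and Krt19, summed to 8340 to 11200 normalized CPM in E-cadHI and 6020 to 15200 in E-cadLO cells. Their median log2 fold change was -0.17, with 0 calls. Their part in the ligand and receptor differences was not tested.

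Genes that cut, activate and retain the ligands were counted next. Of 9 genes, all tested, 5 had a positive log2 fold change (median 0.40) and 0 passed in edgeR in either design. The convertase genes Furin, Pcsk5, Pcsk6 and Pcsk7 had log2 fold changes of -0.11, -0.57, -0.39 and 0.40, with edgeR adjusted p from 0.533 to 0.835. Named after their values were seen, the plasminogen activator genes Plat (tissue type, an activator of PDGF-C) and Plau (urokinase, an activator of PDGF-D) had larger log2 fold changes. Plat had 62, 150, 152 and 88 counts in E-cadHI cells and 2826, 86, 339 and 560 in E-cadLO cells of mice 57, 58, 67 and 70, with a log2 fold change of 3.02 (edgeR adjusted p = 0.279). Plau had 21, 20, 36 and 37 against 176, 28, 270 and 71 counts, a log2 fold change of 2.14 (edgeR adjusted p = 0.270). Without mouse 57 the log2 fold changes were 1.2 for Plat and 1.81 for Plau. The highest Plat value lay in the library with the highest Pdgfrb value, and DESeq2 with the block called Plau (adjusted p = 0.00901) but not Plat (0.199).

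Most genes that carry the receptor signal had log2 fold changes near 0. Of 20 genes, all tested, 15 had a positive log2 fold change with a median of 0.26, and 0 passed in edgeR with or without the block or in DESeq2 with it. The adaptor genes Grb2 and Shc1, the exchange factor gene Sos1 and the phospholipase gene Plcg1 had log2 fold changes of 0.02, -0.14, 0.32 and 0.19. The co-receptor genes Nrp1 and Lrp1, named after their values were seen, were the exceptions in size, with log2 fold changes of 3.99 (edgeR adjusted p = 0.284) and 2.85 (adjusted p = 0.298). Nrp1 had 2321 and Lrp1 had 1106 counts in E-cadLO of mouse 57, against at most 333 and 410 elsewhere. Without mouse 57 their log2 fold changes were 1.47 and 1.37.

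Related receptor kinases were counted beside the family. Of the 7 genes for the other class III receptor kinases and their ligands, 5 were tested, 3 had a positive log2 fold change, with a median of 0.65, and 0 passed in edgeR. Kit, the stem cell factor receptor, had 1476, 1603, 1737 and 644 counts in E-cadHI and 333, 1116, 764 and 514 in E-cadLO cells of mice 57, 58, 67 and 70 (log2 fold change -0.77, edgeR adjusted p = 0.470), and DESeq2 with the block called it lower (-0.97, adjusted p = 0.0434). Its ligand gene Kitl had a log2 fold change of -0.16. Csf1r, the receptor of macrophages and microglia, was called higher by that fit (1.82, adjusted p = 3.07e-05), and its ligand gene Csf1 was not (0.70, adjusted p = 0.177). Of 8 VEGF ligand and receptor genes found, 6 were tested, all with a positive log2 fold change (median 0.41), and 0 passed in edgeR or in DESeq2 with the block. Vegfa and Vegfb had log2 fold changes of 0.46 and 0.36, and Vegfc had 324 counts in E-cadLO of mouse 57 and 6 to 22 elsewhere. The class III list thus held members higher and lower in E-cadLO cells, with Kit in the same direction as Pdgfc.

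The genes most like each member over the 8 libraries were found by Pearson's r of log2(normalized CPM + 0.5), as a description in which all points share the libraries and their scaling. For Pdgfra these were Gfra4 (0.992), Stmn2 (0.989), Ap3b2 (0.986), Arhgap23 (0.985) and Lrig1 (0.982). For Pdgfrb they were Gsdmd (0.989), 9430020K01Rik, Snx30 and Gm11934 (each 0.987) and Plxdc1 (0.984). Pdgfrb had 1976 counts in E-cadLO of mouse 57 and at most 84 elsewhere, so its r values rest largely on that library. For Pdgfa they were Dusp8 (0.981), 1810032O08Rik (0.978), Pias4 (0.977), Zfp593 (0.974) and Cav1 (0.972), and for Pdgfb Eif1 and C2cd2l (each 0.970), Atf5 (0.964), Med13l (0.960) and Tulp2 (0.959). For Pdgfd they were Rnase6 (0.980), H2-Ab1 (0.977), Srgn (0.974), Bcl2a1b and H2-Aa (each 0.972), of which H2-Ab1 and H2-Aa encode chains of MHC class II. Pdgfc had the lowest values of likeness, led by Gsto1 (0.960), Htatip2 (0.953), Mtap (0.952), Maged1 (0.942) and 9530068E07Rik (0.936). The median r over all genes lay between -0.056 and 0.060 for the 6 members. The named genes are the highest of all genes tested over only 8 libraries, a choice that by itself gives high r.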

How the data were processed

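Whole-number read counts per gene were analysed as the authors deposited them, without normalization, for 8 mRNA libraries. The submitters' processing notes name HISAT2 2.1.0, HTSeq and the GRCm38 build. The methods text names another counter, and the strand setting and the treatment of reads matching several genes are not given in the sources used here. The 365 entries without an identifier, at most 0.0954% of a library, were left out.

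Counts were fitted in edgeR 4.0.16 (R 4.3.3) with TMM normalization, filterByExpr by group and the quasi-likelihood test on the 8 libraries together, without the mouse, since the study's methods name none. P-values were adjusted by Benjamini-Hochberg over the 13598 genes tested, with a threshold of 0.05. Alternatives were DESeq2 1.42.0 (adjusted p left as NA where DESeq2 gave none), its size factors in edgeR, no filter, at least 10 counts in every library, the mouse as replicate block, each mouse left out, and pseudocounts of 0.1 and 1 in place of 0.5. DESeq2 with the block and a mouse left out was added after the values were seen. Both libraries of a number come from the same mouse by the labels, and their deviations from the group means correlated at 0.275 to 0.698, against at most 0.153 for other pairs. Exact permutation and sign-flip tests were two-sided (the latter at best p = 0.125 with 4 mice) and were made with Python 3.11 and scipy 1.17.1. The permutation test exchanged libraries without regard to the mouse, although libraries of a mouse correlated, whereas the sign-flip test kept them paired. Exon lengths and overlaps came from GENCODE M21 (GRCm38). The fits were also run on simulated counts that held no difference between mice, so that run cannot compare fits with and without the block.

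The members, lists and tests were chosen with earlier results of these data known. Named genes are the 6 members, the 5 genes most like each, and of each list the first 4 and up to 4 called in edgeR with or without the block, other names being marked in the text. Lists were written from general knowledge and are described without a test. They cover ligand processing, receptor signaling, class III receptor kinases, VEGF, fibroblast, mural, OPC, mature oligodendrocyte, astrocyte, neuron, endothelial, microglia and macrophage, platelet and tumor epithelium genes, and 1 listed OPC and 1 VEGF symbol were not matched. Some results on listed markers are not reported here. Depth was between 9102781 and 15769200 counts, and the floor of 3 counts covers counting error only.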

Additional observations from a re-analysis of the deposited data

Results flagged for a closer look

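Each group of 4 values was examined for a value far from the other 3, for the members in each population, their ratio within a mouse and the marker sums. Of 46 groups, 6 held such a value. A rate of 1 in 20 would give 2.3 of 46 in independent groups. These groups share libraries and genes, so no excess over chance can be read from the count. Pdgfrb in E-cadLO of mouse 57 (147 normalized CPM) and the fibroblast sum in the same library (1710) were 2 of them. The other 4 were in mouse 70: the mature oligodendrocyte sum in E-cadHI (8650) and E-cadLO (34700), and the astrocyte sum in E-cadHI (3640) and E-cadLO (10100). Of the 6 PDGF genes, only Pdgfrb was set apart in this way, in 1 group, and no ratio within a mouse was flagged. The log2 ratio of Pdgfrb was still far higher in mouse 57 (8.2) than in mice 58, 67 and 70 (1.76, 2.7 and 0.8).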

How the results depend on the processing

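Each PDGF gene kept its direction in every alternative fit that gave it a value. These were 106 values, each of 1 gene in 1 fit, and many came from overlapping sets of libraries. Of these values, 9 crossed the threshold, all in DESeq2. The number of PDGF genes called was 0 in edgeR in every setting run, 1 in DESeq2, 2 in DESeq2 with the replicate block, and 0 to 3 with a mouse left out. Genes called higher in E-cadLO numbered 0 in edgeR with its own or DESeq2's size factors, 23 without a filter, 3 with at least 10 counts in every library, 99 with the replicate block, 386 in DESeq2, 1031 in DESeq2 with the replicate block, and 0 to 1020 with a mouse left out. Genes called lower numbered 0 in the edgeR fits of all mice, 43 in DESeq2, 216 in DESeq2 with the replicate block, and 0 to 277 with a mouse left out. The cause of these differences between tools was not tested. The filter of 10 counts in every library left Pdgfd and Pdgfrb out. The block changed no call of a PDGF gene in edgeR. Adjusted p over the alternatives ran from 0.00299 to 0.680 for Pdgfa, 0.0067 to 0.680 for Pdgfra and 0.0555 to 0.680 for Pdgfrb. With a mouse left out, the median of the mural list ran from -0.03 (without mouse 67) to 0.65 and that of the tumor epithelium list from -0.42 to 0.02 (without mouse 57), so both changed sign. The fibroblast median moved to 1.33 without mouse 57, and without mouse 70 the OPC and microglial medians moved to 1.88 and 2.51. Depth was lowest for Pdgfd and Pdgfrb, with at most 34 and 14 counts per E-cadHI library.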
